A study of Mus musculus with 16 samples.

Results

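Regulatory T cells (Tregs) from the spleens of T cell receptor (TCR) transgenic mice whose muscle had been injured were compared with the same cells from uninjured transgenic mice, over all genes of the count table. The comparison rests on 4 of the 16 libraries of the series, 2 injured and 2 uninjured, chosen by their labels alone. It asks whether injury to a distant muscle alters splenic Tregs by day 3.

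Both groups came from mTreg24 TCR-tg+ Foxp3 GFP+ mice on the B6 background, aged 6 to 8 weeks. These carry a transgenic TCR from a muscle Treg clone and a green fluorescent reporter of Foxp3. In the injured group, muscle had been damaged 3 days earlier with cardiotoxin, a snake venom protein that destroys muscle fibres; the uninjured group had no such injury. In both groups the Tregs were sorted as positive for the TCR β chain family Vβ8, with a repeated sort, so both share the transgene, the reporter and the gate. Any injury effect measured here is therefore an effect in Tregs that nearly all carry the same β chain. The other 12 libraries hold Tregs of injured Tg muscle, WT muscle and WT spleen, and whole muscle at day 8. The labels do not say whether the 2 libraries of a group came from separate animals, and p-values rest only on how far these samples vary, part or all of which may be technical.

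Tregs are T cells that depend on the transcription factor Foxp3 and restrain other immune cells through inhibitory receptors, cytokines and capture of interleukin 2. After acute injury they accumulate in skeletal muscle, where they support regeneration. The spleen holds a large resting pool and a smaller effector pool, and is a lymphoid organ from which Tregs can recirculate.

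Total counts were 4174703 and 4230359 in the injured libraries, and 2883691 and 3709503 in the uninjured libraries. At these depths a count of 0 allows up to 3 counts, or 0.719 and 0.709 CPM (counts scaled to a common library total) in the injured and 1.04 and 0.809 CPM in the uninjured libraries, for counting error only. The share of counts in mitochondrially encoded genes lay between 1.13% and 1.30% in all 4 libraries. All levels below are CPM scaled by edgeR's trimmed mean of M values (TMM) over the 4 libraries. Within a group the value of library 1 is given before that of library 2. Log2 fold changes are injured minus uninjured.

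No gene was called different between injured and uninjured Tg spleen Tregs. edgeR's quasi-likelihood test was run with the spread of these 4 libraries alone and also with the spread shared over all 10 Treg libraries in 5 groups. It called 0 of 11865 tested genes (0%) with the own spread and 0 of 13188 (0%) with the shared spread at an adjusted p under 0.05. At an unadjusted p under 0.05 there were 464 genes with the own spread (3.91% of those tested), 254 higher and 210 lower in injured. With the shared spread there were 236 (1.79%), 122 higher and 114 lower. DESeq2 and limma-voom also called 0 genes in both fits. The biological coefficient of variation, the spread between libraries beyond counting error, was 16.5% with the own spread and 23.9% with the shared spread.

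The count of 0 with the own spread was sensitive to single libraries. With 1 library left out it was 27 without uninjured 1, 11 without uninjured 2, 9 without injured 1 and 0 without injured 2. In each of these fits the group of the missing library is a lone library assumed to vary like the other group, with 1 residual degree of freedom. With the shared spread the count was 0 whichever of the 4 libraries was left out.

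For genes with moderate or high counts, the intervals bounded the difference between these libraries. They rest on the same spread as the p-values, part or all of which may be technical. They therefore need not bound a difference between animals. The 95% interval of the log2 fold change lay wholly inside a 2-fold change for 7493 of 11865 genes (63.15%), and inside a 1.5-fold change for 3914 (33.0%). With the shared spread these were 6685 (50.7%) and 3081 (23.4%) of 13188 genes. With the own spread the bound depended on level. It held at 2-fold for 0% of 1043 genes with a mean log2 CPM under 2, and 9.38% of 2920 genes between 2 and 4. It held for 84.2% of 4252 between 4 and 6, 99.7% of 2964 between 6 and 8, and 99.6% of 686 at 8 and over. At 8 and over, 98.3% were also inside 1.5-fold. The median log2 fold change over all genes was 0.00 and its median size 0.17, and 428 genes (3.61%) had a size over 1. Of these, 242 had a mean log2 CPM under 2. Intervals of single genes below are from the own spread. The median half-width of an interval was 0.57 with the own and 0.74 with the shared spread. Some abundant genes were not bounded at 2-fold with the shared spread, such as Itgb7 (-2.69 to 2.20). With the shared spread the interval covered 0 for genes such as Igkc (-3.97 to 5.07), H2-Ab1 (-1.37 to 3.00) and Tbx21 (-2.97 to 0.53). It excluded 0 for others, such as Cdk5rap1 (0.81 to 2.34) and Fos (-1.22 to -0.49).

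**Figure D1:**
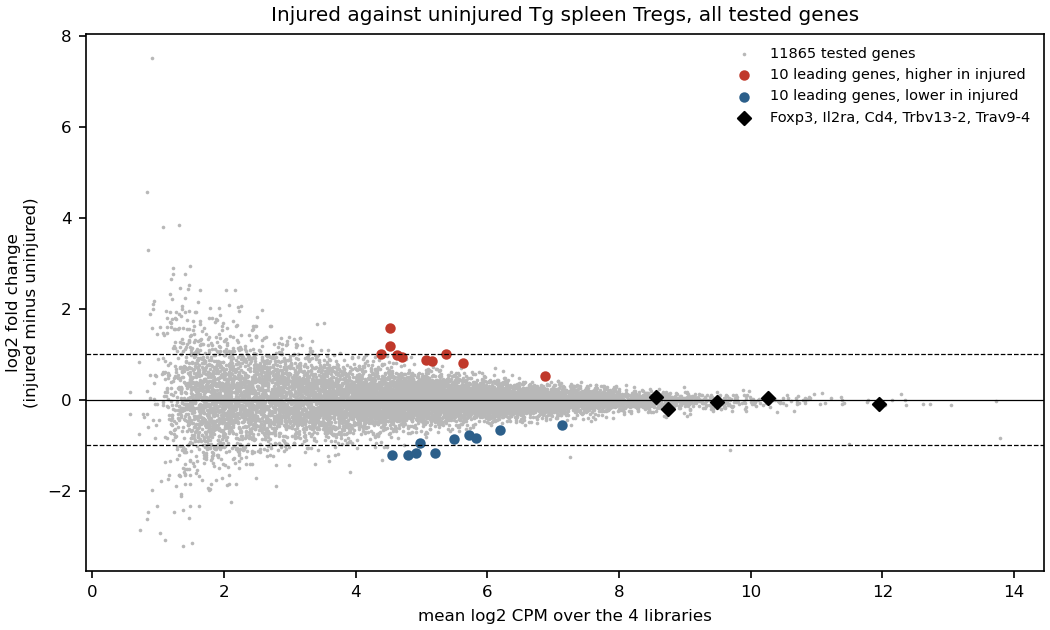
Each grey point is 1 of 11865 tested genes, by its mean log2 CPM over the 4 libraries (x axis) and its log2 fold change, injured minus uninjured (y axis); dashed lines mark a 2-fold change. The scatter narrows with level, and Foxp3, Il2ra, Cd4, Trbv13-2 and Trav9-4 (black) lie near 0, while the leading genes (red, blue) sit at the edges of the cloud.

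By root mean square difference, libraries of different groups were no further apart than the pair of uninjured libraries. Over the 11865 tested genes the root mean square difference in log2 CPM was 0.565, 0.546, 0.573 and 0.557 for the 4 pairs across groups. It was 0.531 between the injured libraries and 0.587 between the uninjured libraries. Over the 7901 genes with a mean log2 CPM of at least 4 it was 0.326 to 0.337 across groups, 0.337 within injured and 0.344 within uninjured. The uninjured libraries thus lay further apart than any pair across groups by this measure, over both sets of genes. The measure also holds counting noise, and uninjured 1 was the shallowest of the libraries. With 2 libraries a group, an exact two-sided permutation test of a single value cannot give a p below 0.3333. Within each group the libraries differed beyond the noise of sampling, with a chi-square of 6.07 (injured) and 5.47 (uninjured) for each degree of freedom, and none was treated as a duplicate. The pairs across groups gave 6.445, 5.65, 6.05 and 5.23, so by chi-square the uninjured pair was not the furthest apart.

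**Figure D2:**
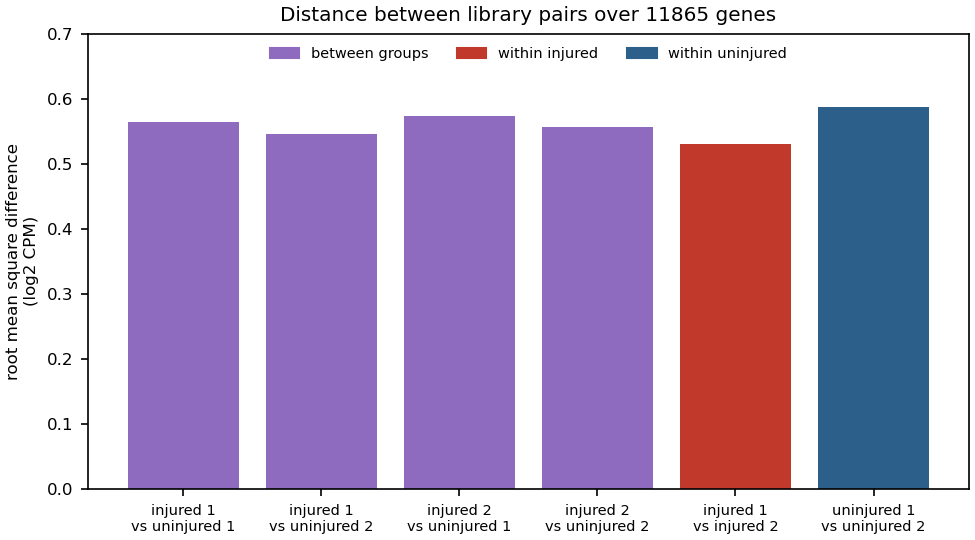
Bars give the root mean square difference in log2 CPM over 11865 genes for each pair of the 4 libraries. The 4 pairs across groups (0.546 to 0.573) fall between the pair of injured libraries (0.531) and the pair of uninjured libraries (0.587).

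The defining Treg genes were abundant in all 4 libraries, and the level of Foxp3, Il2ra and Cd4 was close in both groups. Foxp3, the lineage-defining transcription factor, had 1291 and 1228 CPM in injured against 1323 and 1110 CPM in uninjured, a log2 fold change of 0.05 (95% interval -0.21 to 0.31). Il2ra, the high-affinity chain of the interleukin 2 receptor, had 387 and 390.0 CPM in injured against 377 and 364.5 CPM in uninjured (0.07, -0.19 to 0.32). Cd4, the co-receptor of helper-lineage T cells, had 668 and 748 CPM in injured against 738 and 719 CPM in uninjured (-0.04, -0.29 to 0.21). The groups overlapped for Foxp3 and Cd4, and all 3 intervals exclude a change of 1.5-fold in either direction. All 20 tested genes of a Treg identity list had own-spread intervals inside 2-fold. In the shared fit 7 of the 20 were positive, with a median log2 fold change of -0.07, beside 6563 of 13188 (49.8%) and a median of 0.00 over all genes. Without injured 2 the list's median was 0.02 with 10 positive, and without injured 1 it was -0.13 with 6 positive.

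Ctla4, the inhibitory receptor by which Tregs strip costimulatory ligands from other cells, was the identity gene furthest from 0 relative to its spread, singled out after its values were seen. It had 493 and 474 CPM in injured against 597 and 606 CPM in uninjured. Both injured libraries were below both uninjured ones, with a log2 fold change of -0.32 (-0.56 to -0.07) and an adjusted p of 1 by edgeR.

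The transgenic receptor was present at like shares in both groups. Trbv13-2, a Vβ8 segment, made up 96.6% and 97.6% of Trbv counts in injured against 97.8% and 97.4% in uninjured libraries. Trav9-4, the leading α segment, made up 61.6% and 71.4% of Trav counts in injured against 64.9% and 68.2% in uninjured libraries. The groups overlapped for both segments, which can share reads with near relatives. The Vβ8 gate itself favours Trbv13-2, so its share is no independent check of the transgene. Trbv1 made up 0.452% and 0.462% of Trbv counts in injured against 0.164% and 0.105% in uninjured libraries, with no overlap and no call.

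Genes of the effector Treg programme, which is strong in tissue Tregs, were mostly slightly lower in the injured group. None of the 35 tested was called; 4 were positive and the median log2 fold change was -0.18. For 12 genes both injured libraries lay below both uninjured ones and for 1 they lay above, beside 15.6% and 16.1% of all 13188 genes. Without injured 2 the median was -0.05 with 16 positive, and injured 2 had the lowest level of the 4 libraries for 22 of the 35 genes. A library of sorted cells is a bulk sample, so fewer cells in an effector state and less RNA per cell cannot be told apart.

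Icos, a costimulatory receptor of effector Tregs, had 651 and 613 CPM in injured against 721 and 721 CPM in uninjured (-0.19, -0.44 to 0.06). Tnfrsf4, the receptor OX40, had 744 and 498 CPM in injured against 658 and 700 CPM in uninjured (-0.13, -0.46 to 0.20). Both are abundant, and both intervals exclude a 1.5-fold difference. Il10, the anti-inflammatory cytokine, was rare, with 13 and 5 counts in injured against 23 and 27 counts in uninjured libraries (-1.84, -3.25 to -0.47). Tnfrsf1b, the TNF receptor that sustains Tregs, and Lgals1, the lectin galectin-1, overlapped between groups, at -0.08 (-0.38 to 0.21) and -0.10 (-0.36 to 0.17).

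Several effector genes with p-values under 0.05 before adjustment were lower in both injured libraries. Lag3, an inhibitory receptor that binds MHC class II, had 30.2 and 19.6 CPM in injured against 40.5 and 71.3 CPM in uninjured (-1.17, -1.80 to -0.55; edgeR adjusted p = 1.0). Tbx21, the T-bet factor of type 1 responses, had 20.5 and 10.4 CPM in injured against 41.9 and 30.2 CPM in uninjured (-1.22, -1.95 to -0.49). Both lie among the 10 lower genes with the smallest p. Chosen after their values were seen, Cxcr3, a T-bet target chemokine receptor, had 179 and 164 CPM in injured against 224 and 234 CPM in uninjured (-0.42, -0.70 to -0.14). Tigit, an inhibitory receptor, had 417 and 311 CPM in injured against 431 and 503 CPM in uninjured (-0.36, -0.67 to -0.05). The groups overlapped for neither gene, and neither was called. Other members of the list, also chosen after their values were seen, were not lower in both injured libraries. Il1rl1 had 106.4 and 148 CPM in injured against 106.1 and 95.8 CPM in uninjured (0.34, -0.04 to 0.71). Gata3, Batf and Rora overlapped between groups, at -0.003, -0.02 and 0.02. By contrast, Il12rb1, a receptor chain for interleukins 12 and 23, was lower in both injured libraries. It also lies among the 10 lower genes with the smallest p. Il12rb1 had 126 and 107 CPM in injured against 179 and 162 CPM in uninjured (-0.55, -0.87 to -0.23).

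Genes of resting and lymphoid-homing Tregs had a median near 0. Of 21 tested, 16 were positive with a median of 0.07, none was called, and 3 lay above without overlap and 1 below, beside 16.1% and 15.6% of all genes. S1pr1, the receptor for exit from lymphoid organs, had 428 and 471 CPM in injured against 428 and 445 CPM in uninjured (0.04, -0.22 to 0.30). Il7r, the interleukin 7 receptor of resting T cells, was at 0.05 (-0.24 to 0.33). Bach2, a repressor of effector genes, had 39.0 and 36.6 CPM in injured against 26.5 and 23.5 CPM in uninjured (0.60, 0.06 to 1.15). Without injured 2 the list's median was -0.07 with 8 positive.

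Receptors and integrins that direct Tregs into tissue showed no common shift. Of 24 tested, 10 were positive with a median of -0.03, and 2 lay above and 3 below without overlap, beside 16.1% and 15.6% of all genes. Without injured 1 the median was 0.04 with 16 positive. The most abundant were the integrins Itgb7, Itgb2 and Itgal and the selectin ligand Selplg, with log2 fold changes of -0.24 (-0.65 to 0.17), -0.05 (-0.29 to 0.19), 0.03 (-0.22 to 0.29) and -0.02 (-0.27 to 0.23). Itgb7 pairs with α4 for homing to gut, and its libraries ranged widely within both groups, at 1199 and 1848 CPM in injured against 1500 and 2101 CPM in uninjured. Cxcr6 had 25.5 and 13.2 CPM in injured against 28.0 and 31.9 CPM in uninjured (-0.63, -1.33 to 0.07).

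The genes that separate muscle from spleen Tregs in WT mice were then followed in these libraries. In an edgeR fit of the 4 WT Treg libraries alone, 682 genes (5.69% of 11991) were higher and 364 (3.04%) lower in muscle. The WT libraries hold none of the 4 compared samples, but the fit that gives the medians below shares its filter, scaling and spread with them. Of the 682 muscle-high genes, 239 (35.0%) were positive in injured against uninjured Tg spleen, with a median of -0.07. For 156 both injured libraries lay below both uninjured ones, and for 70 they lay above, beside 15.6% and 16.1% of all genes. Of the 364 muscle-low genes, 224 were positive with a median of 0.06, with 72 above and 42 below. The medians kept these signs whichever of the 4 libraries was left out, from -0.09 to -0.06 for muscle-high genes and from 0.02 to 0.08 for muscle-low genes. No gene of either list was called. The medians are small, and over all genes 49.8% were positive.

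**Figure D3:**
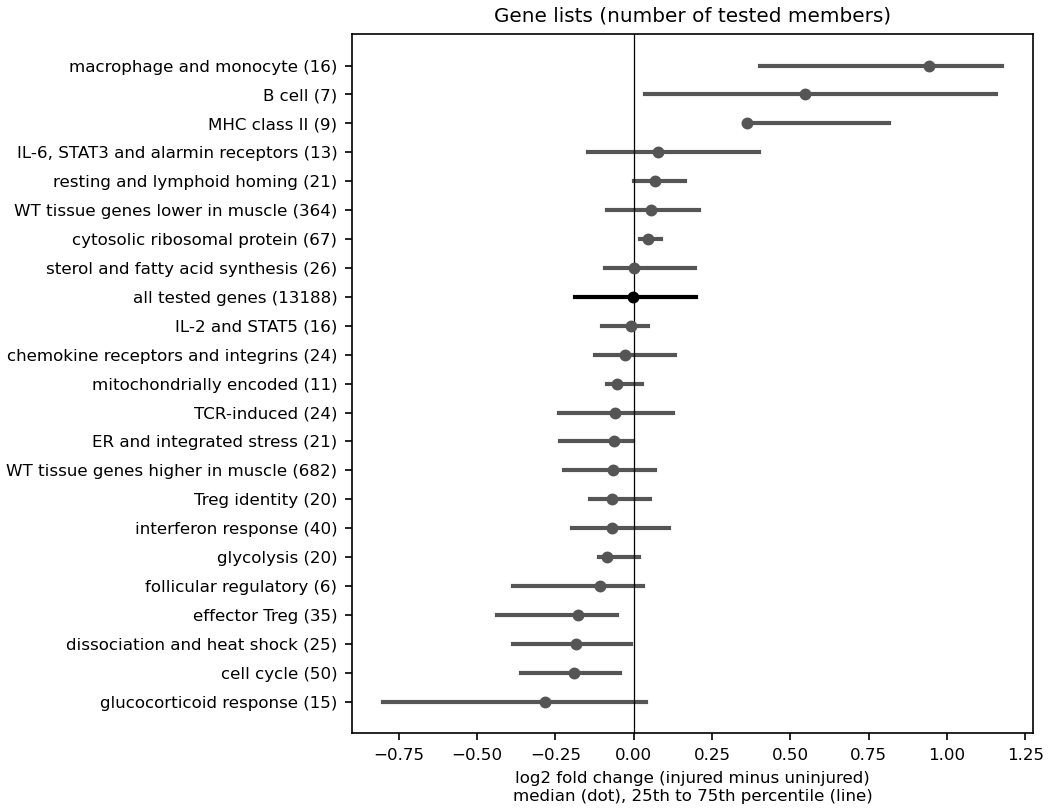
Dots are the median log2 fold change (injured minus uninjured, x axis) of each gene list with at least 6 tested members, and lines run from the 25th to the 75th percentile of its members; the number tested is in brackets and all tested genes are in black. Most medians lie between -0.2 and 0.1, the macrophage, B cell and MHC class II lists lie to the right and the glucocorticoid list to the left.

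TCR-induced genes, which report recent signalling, and genes of the interleukin 2 and STAT5 pathway showed small medians. Of 24 TCR-induced genes, 8 were positive with a median of -0.06, with 3 above and 5 below without overlap, beside 16.1% and 15.6% of all genes. The median was 0.06 with 13 positive without injured 2, and the same without uninjured 2. Nfkbia, an inhibitor of NF-κB, had 750.0 and 482 CPM in injured against 662 and 627 CPM in uninjured (-0.07, -0.41 to 0.28). Junb and Nfatc1, a subunit of AP-1 and a calcium-regulated factor, were both at -0.03. Dusp2, a phosphatase of MAP kinases, had 41.2 and 43.7 CPM in injured against 52.3 and 72.3 CPM in uninjured (-0.56, -1.03 to -0.09). Of 16 genes of interleukin 2 and STAT5 signalling, 7 were positive with a median of -0.01, which ran from -0.04 to 0.03 on leaving out 1 library. Il2rg, the common receptor chain, had 993 and 1078 CPM in injured against 1014 and 1043 CPM in uninjured (0.01, -0.24 to 0.25). Pim2, a survival kinase, had 32.6 and 34.7 CPM in injured against 20.8 and 23.5 CPM in uninjured (0.60, 0.03 to 1.17).

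Receptors and factors for interleukin 6 and for alarmins, the signals that injured tissue releases, gave 8 of 13 positive and a median of 0.08. The median was 0.24 without injured 1 and 0.20 without uninjured 1. Stat3, which carries the interleukin 6 signal, had 342 and 343 CPM in injured against 340.1 and 326 CPM in uninjured (0.04, -0.22 to 0.30). Chosen after its values were seen, Il18r1, the ligand-binding chain of the interleukin 18 receptor, had 79.5 and 69.2 CPM in injured against 47.3 and 55.1 CPM in uninjured (0.53, 0.12 to 0.95). Its partner chain Il18rap, chosen likewise, had 83.8 and 95.7 CPM in injured against 64.5 and 71.3 CPM in uninjured (0.40, 0.02 to 0.78). Both chains were higher in both injured libraries without a call. Over the list, 5 genes lay above and 3 below without overlap, beside 16.1% and 15.6% of all genes. Il21r, also of the list, was lower in both, with 427 and 341 CPM in injured against 444 and 461 CPM in uninjured (-0.24, -0.52 to 0.05). Irak3, an inhibitor of that pathway, was low throughout, with 2.62 and 2.83 CPM in injured against 6.81 and 7.83 CPM in uninjured (-1.42, -2.69 to -0.17).

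Glucocorticoid-responsive genes were examined because injury can raise systemic stress hormones. Of 15 tested, 6 were positive with a median of -0.28, and 7 lay below without overlap, against 15.6% of all genes. Tsc22d3, the glucocorticoid-induced leucine zipper, had 391 and 535 CPM in injured against 598 and 591 CPM in uninjured (-0.36, -0.66 to -0.06). Errfi1, an inhibitor of growth factor receptors, had 8.09 and 14.2 CPM in injured against 20.4 and 25.9 CPM in uninjured (-1.06, -1.85 to -0.28). Fkbp5, a classical target chosen after its values were seen, overlapped and was at 0.03 (-0.48 to 0.53). Nr3c1, the receptor itself, also overlapped (0.04, -0.42 to 0.49). The median was -0.49 without injured 2 and -0.35 without uninjured 1, and it was -0.13 after counts were thinned to the smallest library.

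Early response and heat shock genes, which also respond to cell isolation, gave 6 of 25 positive and a median of -0.18 (-0.05 without injured 1). Fos, an AP-1 subunit, had 36.4 and 29.8 CPM in injured against 62.4 and 57.5 CPM in uninjured (-0.85, -1.33 to -0.38). It was lower in both injured libraries. Jun overlapped between groups (-0.68, -1.41 to 0.04), and the chaperone Hsp90ab1 was at -0.01 (-0.25 to 0.23).

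Interferon-response genes had a median near that of all genes. Of 40 tested, 16 were positive with a median of -0.07, with 5 above and 13 below without overlap, beside 16.1% and 15.6% of all genes, and none was called. Iigp1, an interferon-γ-induced GTPase that attacks vacuoles of intracellular parasites, had 41.4 and 43.7 CPM in injured against 64.1 and 86.9 CPM in uninjured (-0.83, -1.28 to -0.39). Irgm1 and Igtp, related GTPases chosen after their values were seen, were at -0.42 (-0.71 to -0.13) and -0.39 (-0.68 to -0.10). Ifi27l2a, the most abundant member, overlapped, with 1754 and 1353 CPM in injured against 1409 and 1603 CPM in uninjured (0.05, -0.24 to 0.33). Psmb8 and Tap1, of peptide processing, were at -0.13 (-0.38 to 0.12) and -0.24 (-0.51 to 0.03). Without uninjured 2 the list's median was 0.04 with 21 positive.

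Cell cycle genes followed a library rather than a group. Of 50 tested, 9 were positive with a median of -0.19. Uninjured 2 had the highest level for 40 of the 50 and uninjured 1 the lowest for 26. Without uninjured 2 the median was 0.24 with 37 positive, and without uninjured 1 it was -0.51 with 5 positive, so its sign rests on uninjured 2. Mcm6, part of the replicative helicase, had 280.2 and 283 CPM in injured against 279 and 339 CPM in uninjured (-0.14, -0.42 to 0.15). Tpx2, a spindle assembly factor, had 30.0 and 21.5 CPM in injured against 33.3 and 56.1 CPM in uninjured (-0.81, -1.43 to -0.19).

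Ribosomal protein genes behaved likewise. Of 67 tested, 53 were positive with a median of 0.04, uninjured 2 was lowest for 56 and injured 1 highest for 42. The median was -0.08 with 10 positive without uninjured 2, and -0.07 with 12 positive without injured 1. Rpl4, of the large subunit, had 1969 and 1922 CPM in injured against 1979 and 1800 CPM in uninjured (0.04, -0.20 to 0.28).

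Metabolic programmes had small medians. Glycolysis genes gave 6 of 20 positive and a median of -0.09, and Ldha, which makes lactate, was at -0.03 (-0.27 to 0.21). Sterol and fatty acid synthesis genes gave 13 of 26 positive and a median of 0.00 (-0.07 to 0.05 on leaving out 1 library), with 3 above and 8 below without overlap, beside 16.1% and 15.6% of all genes. Sqle, an early cholesterol synthesis enzyme, had 38.3 and 38.0 CPM in injured against 54.1 and 61.5 CPM in uninjured (-0.60, -1.05 to -0.15). Mitochondrially encoded genes gave 5 of 11 positive and a median of -0.05, which was 0.04 with 7 positive without injured 1, 0.00 without uninjured 2 and 0.03 with no filter on low counts. Genes of endoplasmic reticulum stress gave 5 of 21 positive and a median of -0.06 (-0.19 without injured 1 and -0.155 without uninjured 1), with Hspa5, the main chaperone there, at -0.15 (-0.42 to 0.13).

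Genes listed as markers of macrophages, B cells and MHC class II had positive medians, and none of them was called. Most were at low levels, with exceptions such as Ighm and Ctss. Of 17 macrophage and monocyte genes, 16 were tested and 15 were positive, with a median of 0.94. Both injured libraries lay above both uninjured ones for 8 and below them for 1, beside 16.1% and 15.6% of all genes, and none was called. The summed level was 588 and 556 CPM in injured against 508 and 386 CPM in uninjured libraries. Fcgr1, a defining monocyte receptor, was at 0 counts in all 4. C1qb, a complement subunit of tissue macrophages, had 21.2 and 21.7 CPM in injured against 11.5 and 2.43 CPM in uninjured (1.68, 0.60 to 2.78). Csf1r, the macrophage growth factor receptor, had 29.3 and 48.2 CPM in injured against 31.5 and 11.1 CPM in uninjured (0.89, 0.05 to 1.73). Slc40a1, the iron exporter ferroportin, had 29.3 and 42.1 CPM in injured against 25.8 and 7.02 CPM in uninjured (1.16, 0.24 to 2.09).

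The macrophage difference leaned on uninjured 2, which was lowest for 12 of the 16 genes. Without that library the median was 0.37 with 12 positive, and without uninjured 1 it was 1.64 with 14 positive. In the fit without uninjured 1, C1qa, C1qb, Csf1r, Apoe and Slc40a1 were among the 27 genes that edgeR called with the own spread. Lyz2, lysozyme, ran the other way, with 16.2 and 1.89 CPM in injured against 28.3 and 17.5 CPM in uninjured, as singled out after its values were seen. Hmox1, the haem-degrading enzyme abundant in red pulp macrophages, had 30.2 and 27.4 CPM in injured against 15.4 and 13.2 CPM in uninjured (1.01, 0.36 to 1.67).

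B cell genes gave 6 of 7 positive and a median of 0.55, with 2 above and 0 below without overlap, beside 16.1% and 15.6% of all genes. The positive genes Cd79b and Ighd overlapped between groups, at 0.01 (-0.55 to 0.57) and 0.06 (-0.60 to 0.72). Ms4a1, the B cell surface molecule CD20, had 6.90 and 15.6 CPM in injured against 4.30 and 1.62 CPM in uninjured (1.96, 0.66 to 3.29). Igkc, the κ light chain constant region, had 43.8 and 58.8 CPM in injured against 36.6 and 33.8 CPM in uninjured (0.55, 0.05 to 1.05). Injured 2 was highest for 6 of the 7, and without it the median was 0.00 with 3 positive. Ighm, the μ heavy chain, was far more abundant and overlapped between groups, with 1716 and 1520 CPM in injured against 1671 and 1772 CPM in uninjured (-0.09, -0.34 to 0.16).

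All 9 MHC class II genes tested were positive, with a median of 0.36, and 4 lay above without overlap, beside 16.1% of all genes. H2-Ab1, a class II β chain (chromosome 17, 34257689 to 34269419), had 78.8 and 52.7 CPM in injured against 36.6 and 38.1 CPM in uninjured (0.82, 0.32 to 1.31). Cd74, the invariant chain, overlapped, with 175 and 137 CPM in injured against 152 and 126 CPM in uninjured (0.17, -0.17 to 0.52). Injured 1 was highest for 8 of the 9 genes. The median was 0.33 without injured 1, with 6 positive, and 0.83 without uninjured 2, with 7 positive. Class II genes are expressed by B cells and macrophages. The part of these cells in the result was not tested.

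Most markers of further cell types were low, with exceptions. Pecam1, listed for endothelium, had 178 and 243 CPM in injured against 229 and 186 CPM in uninjured. Cd8b1, listed for CD8 T cells, had 17.9 and 14.4 CPM in injured against 17.9 and 14.6 CPM in uninjured. Col1a1, the only gene tested of 6 listed for stroma, had 4.52 and 8.98 CPM in injured against 1.075 and 3.78 CPM in uninjured (1.41, -0.05 to 2.89), without a call. The stroma gene Col1a2 had 0 and 0.236 CPM in injured against 0.358 and 0.27 CPM in uninjured. Dcn and Pdgfra overlapped between groups at no more than 1.08 CPM, and Col3a1 was at 0 in all 4 libraries. Of 8 neutrophil genes 1 was tested, S100a9, Camp, Retnlg and Elane were at 0 in all 4 libraries, and the summed level was 4.52 and 2.36 CPM in injured against 0.717 and 2.16 CPM in uninjured. The summed level of 6 dendritic cell genes was 22.6 and 17.5 CPM in injured against 19.7 and 20.5 CPM in uninjured, with Siglech at 0. Erythroid genes summed to between 11.4 and 12.5 CPM in all 4 libraries. The Y-linked gene Ddx3y was present in all 4 libraries, at 75.7 and 128 CPM in injured against 66.3 and 97.7 CPM in uninjured, and Xist had at most 2.15 CPM.

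**Figure D4:**
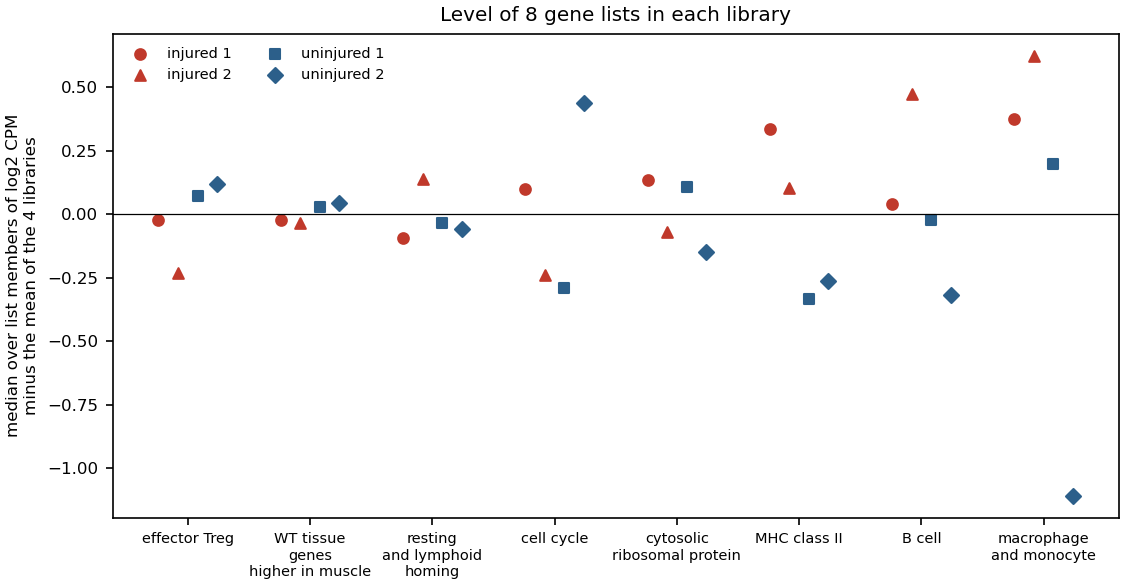
Each symbol is the median over the members of a list of the log2 CPM in 1 library minus the mean of the 4 libraries (y axis), for 8 lists (x axis). Both injured libraries (red) sit above both uninjured ones (blue) for MHC class II, B cell and macrophage genes; for macrophage genes uninjured 2 is far below the rest, and the uninjured libraries lie at opposite ends for cell cycle genes.

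The leading genes were taken as the 10 higher and 10 lower genes with the smallest own-spread p among genes with a name, a mean log2 CPM of at least 4 and groups that did not overlap. The lowest adjusted p of any gene was 0.459 by edgeR with the own spread, and these genes are given as a description. Because they were chosen by p, their own-spread intervals all exclude 0, which is no further evidence. With the shared spread the interval covered 0 for some, such as Dnase1l3 (-3.09 to 0.74) and Nubp1 (-2.15 to 0.26). It excluded 0 for others, such as Tsc1 (0.42 to 1.60).

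Among the higher genes, Cdk5rap1 led. It encodes a methylthiotransferase that modifies mitochondrial tRNA (chromosome 2, 154335380 to 154373010). It had 40.9 and 36.6 CPM in injured against 12.2 and 13.8 CPM in uninjured (1.57, 0.96 to 2.19; edgeR adjusted p = 0.459). Both injured libraries were well above both uninjured ones. Its level in other Treg libraries, on CPM scaled over all 10, was 44.5 and 31.2 in Tg muscle, 14.2 and 23.2 in WT muscle and 23.6 and 43.7 in WT spleen. On that scale it was 39.0 and 34.8 in injured against 11.6 and 13.1 in uninjured Tg spleen. The injured values thus lay within the range of the other groups, and the uninjured values lay below it.

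Tsc1, a brake on the mTOR growth pathway (chromosome 2, 28641228 to 28691167), had 60.5 and 56.0 CPM in injured against 28.7 and 29.2 CPM in uninjured (1.01, 0.54 to 1.48). Pias2, a SUMO ligase, had 28.8 and 39.9 CPM in injured against 13.3 and 16.7 CPM in uninjured (1.19, 0.54 to 1.84). Cul4b, a ubiquitin ligase scaffold, had 36.9 and 34.0 CPM in injured against 16.1 and 20.8 CPM in uninjured (0.93, 0.33 to 1.53). The libraries of each group lay close together for Tsc1 and further apart for Pias2. The other higher genes were Def8 (0.98), Trim5 (0.88), Zfp287 (0.85) and Ccar2 (0.53), besides H2-Ab1 and Hmox1 above. Exons of Ccar2 overlap those of Bin3 on the other strand, and the strand setting of the counting is not given, so its reads cannot be fully assigned.

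Among the lower genes, Anxa1 encodes annexin A1, a glucocorticoid-induced protein that dampens inflammation (chromosome 19, 20373428 to 20390944). It had 17.9 and 18.2 CPM in injured against 37.3 and 45.9 CPM in uninjured (-1.21, -1.78 to -0.64). The injured libraries were nearly equal and both were well below the uninjured ones. Scaled over the 10 libraries, it was 17.0 and 17.3 CPM in injured against 35.5 and 43.6 CPM in uninjured Tg spleen. On that scale it was 101 and 97.4 CPM in Tg muscle, 46.3 and 123 CPM in WT muscle and 0 and 1.69 CPM in WT spleen Tregs. Both Tg spleen groups thus lay between the WT spleen and the muscle libraries. Fos had 966 and 742 CPM in Tg muscle Tregs and 893 and 900 CPM in WT muscle Tregs on that scale, an order of magnitude above any spleen library.

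Dnase1l3, a secreted nuclease known from macrophages and dendritic cells, had 28.1 and 12.99 CPM in injured against 46.2 and 46.4 CPM in uninjured (-1.17, -1.85 to -0.50). Grn, the growth factor progranulin, had 60.0 and 56.5 CPM in injured against 91.0 and 92.1 CPM in uninjured (-0.65, -1.03 to -0.28). Dnajb13 was at -0.76 and Nubp1 at -0.94. Exons of Grn, Dnajb13 and Nubp1 overlap those of Fam171a2, Ucp2 and Tvp23a on the other strand, so part of their reads may belong to those genes. The remaining lower genes, Iigp1, Lag3, Fos, Il12rb1 and Tbx21, are given above with their programmes.

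**Figure D5:**
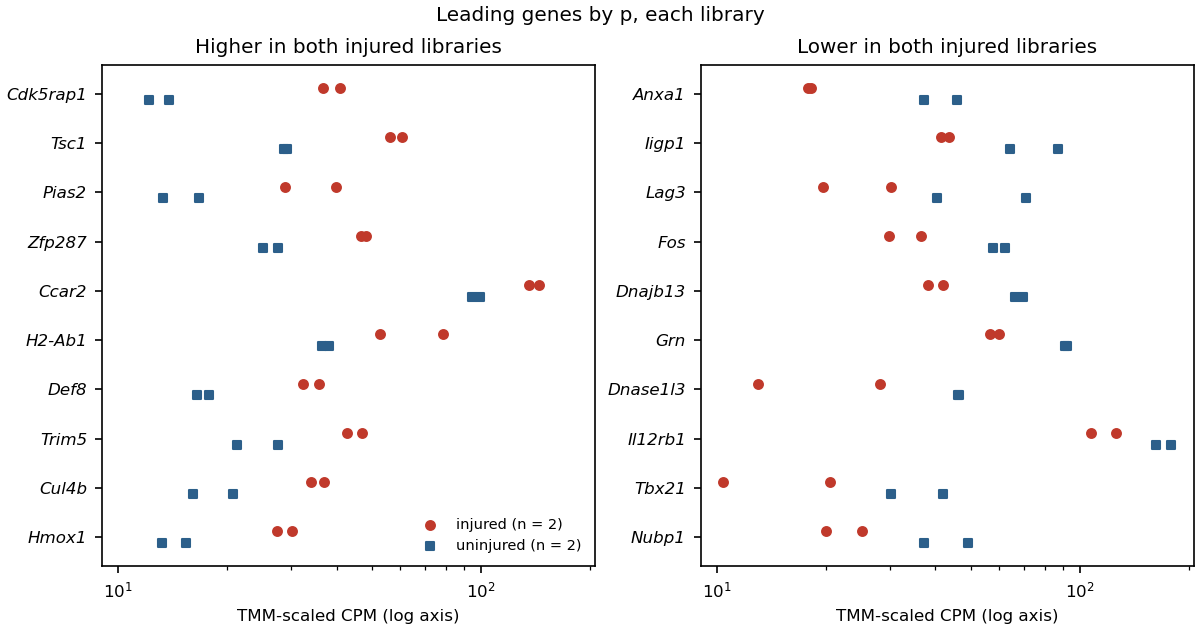
Points are the TMM-scaled CPM (x axis, log scale) of each library for the 10 higher and the 10 lower genes with the smallest p, injured in red circles and uninjured in blue squares. No gene has overlapping groups, which the choice of genes fixed; Cdk5rap1 shows the widest gap among the higher genes, at 36.6 to 40.9 CPM in injured against 12.2 to 13.8 CPM in uninjured.

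A fitted difference of over 2-fold was found in 2 transcript models, neither with a named function, among the genes with a mean log2 CPM of at least 6. Gm21738 had 547 and 620 CPM in injured against 1734 and 774 CPM in uninjured (-1.10, -1.91 to -0.30). Gm10717 had 92.4 and 114 CPM in injured against 345 and 146 CPM in uninjured (-1.24, -2.13 to -0.36). Both were highest in uninjured 1, the shallowest of the 4 libraries. Without uninjured 2 the own-spread log2 fold change was -1.58 for Gm21738 and -1.75 for Gm10717. In that fit the models Gm10715, Gm10800 and Gm10801 were also lower in injured, at -1.67, -1.16 and -1.38. With all 4 libraries none of these models was called. They were singled out after their values were seen, and near-identical copies of such models may share reads.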

How the data were processed

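RNA-seq counts were analysed for 4 libraries of double-sorted splenic Vβ8+ Tregs, 2 from injured and 2 from uninjured TCR transgenic mice. The authors deposited raw read counts (whole numbers) for 16 libraries and 52997 gene symbols, and all sample columns were matched to labels by name. Per the submitters' processing notes, reads were aligned with STAR 2.5.4 to mm10 and counted with featureCounts. Which annotation, strand option and featureCounts version were used is not given in the sources used here. Libraries were made from oligo(dT)-primed, amplified and transposon-cut cDNA, per the labels' protocols, so reads are not independent molecules. Sorted cells per library numbered 1000 by the labels' protocol and 2000 by the design text.

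Genes were tested with edgeR 4.0.16 in R 4.3.3 (filterByExpr, TMM, robust glmQLFit, glmQLFTest, Benjamini-Hochberg, threshold 0.05). The own-spread fit held the 4 libraries (2 residual degrees of freedom), and the shared-spread fit held 10 Treg libraries in 5 groups (5 residual degrees of freedom). Fold changes and 95% intervals of single genes come from the own-spread fit, and medians and counts over lists from the shared-spread fit. Non-overlap compares the CPM of the libraries. Alternatives were limma-voom (limma 3.58.1), DESeq2 1.42.0, other scaling and filters, thinning, a replicate block, other sets of libraries and leaving out each library. The procedure was tested on simulated data. Coordinates and exon overlaps come from the GENCODE annotation of mm10, in which 204 of 205 names looked up matched 1 gene.

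The comparison and its 29 gene lists were chosen with earlier results of these data known. Named genes were Foxp3, Il2ra, Cd4, Trbv13-2 and Trav9-4, the leading genes by p, and from each list up to 4 members of highest CPM and up to 2 of largest fold change; some are not reported here. Replicate numbers did not pair the libraries.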

Additional observations from a re-analysis of the deposited data

How the results depend on the processing

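DESeq2 and limma-voom called 0 genes in both fits. edgeR also called 0 in both under another scaling, a minimum of 5 CPM and no robust dispersion. It likewise called 0 after removal of receptor segments, after thinning and at an adjusted p under 0.1. With no filter on low counts it called 5 genes with the shared spread (Anxa1, Fos, Il10 and Trbv15 lower, Cdk5rap1 higher) and 5 with the own spread (Bank1, P2ry13 and Cdk5rap1 higher, Ccl1 and Lag3 lower). Leaving out 1 library gave between 0 and 27 calls with the own spread and 0 with the shared spread. The share of genes with an interval inside 2-fold was 27.65% with no filter, and between 50.2% and 73.2% in the other edgeR settings in which it was computed, which leave out DESeq2 and limma-voom. A fit with replicate number as a block called 0 genes in both fits. Replicate numbers did not pair the libraries: the correlation of replicate differences between injured and uninjured was -0.01 over 11865 genes. List medians were recomputed in 240 combinations of list and setting: 30 moved by more than the spread between libraries, 26 of them on leaving out a library, and 27 had the other sign. The medians of the WT tissue genes kept their sign throughout. With 2 libraries a group at these depths, differences in genes with a mean log2 CPM under 4 were mostly not bounded within 2-fold.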

Other observations

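A few rare genes had very uneven counts over the 4 libraries and were chosen after their values were seen. P2ry13, a purinergic receptor, had 25 and 26 counts in the injured libraries and 0 in both uninjured libraries, with an edgeR adjusted p of 0.459 by the own spread. In the other 6 Treg libraries it was at or below 0.962 CPM, scaled over the 10 Treg libraries. Ccl1, a chemokine, had 1 and 0 counts in injured libraries and 63 and 0 in uninjured libraries, so its call without a filter rests on uninjured 1. Bank1, a B cell adaptor, had 8 and 62 counts in injured libraries and 0 and 3 in uninjured libraries, with most of its counts in injured 2, the library in which B cell markers were highest. Trbv15 had 0 counts in both injured libraries and 5 and 8 in uninjured libraries.

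Several leading lower genes, chosen after their values were seen, also differed between the libraries of another spleen Treg group. On CPM scaled over the 10 Treg libraries, Lag3 was 28.8 and 18.6 in injured and 38.5 and 67.7 in uninjured Tg spleen, and 77.4 and 44.5 in WT spleen. Iigp1 was 39.4 and 41.5 in injured and 61.1 and 82.6 in uninjured Tg spleen, and 195 and 96.5 in WT spleen. Dnase1l3 was 26.7 and 12.3 in injured and 44.0 and 44.1 in uninjured Tg spleen, and 18.8 and 2.74 in WT spleen. Tbx21 was 19.5 and 9.87 in injured and 39.9 and 28.7 in uninjured Tg spleen, and 28.9 and 11.2 in WT spleen. The libraries of WT spleen thus differed from each other by 1.5-fold or more for each of these genes. Other leading lower genes were closer together in WT spleen, such as Grn (72.1 and 56.1) and Fos (43.75 and 53.0). Some leading higher genes also differed there, such as Cdk5rap1 (23.6 and 43.7) and H2-Ab1 (2.885 and 38.6).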
